A study of Mus musculus with 18 samples.

Results

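The first 2 days of suspension culture without cytokines were examined in TET triple knockout (TKO) cells. The 2 libraries of TKO aggregates at day 2 were compared with the 2 libraries of TKO epiblast-like cells (EpiLCs), the stage before aggregation. These 4 libraries are all of those labelled TKO EpiLC or TKO day 2 without cytokines, among 18 RNA-seq libraries of the series, and all genes of the count table were considered. The cells derive from E14Tg2a, a mouse embryonic stem cell (ESC) line. In TKO cells the open reading frames of Tet1, Tet2 and Tet3 were excised with CRISPR/Cas9, and every TKO library comes from 1 clone, so the genotype and the clone cannot be told apart. EpiLCs were made by moving ESCs from 2i/LIF into Activin A and FGF, and were then aggregated in GK15 medium, either alone or with BMP4, BMP8a, SCF, LIF and EGF, the cytokines used to induce primordial germ cell-like cells. The aggregates without cytokines were collected whole, so that fewer cells of a type and less RNA per cell cannot be told apart. Wild-type (WT) EpiLCs, WT day 2 aggregates without cytokines and TKO day 2 aggregates with cytokines, each with 2 libraries, are used for comparison. The labels number the libraries of each group as replicates, and p-values measure the spread between these samples.

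Primordial germ cells (PGCs) are the precursors of sperm and eggs. In the mouse they arise from formative epiblast, of which EpiLCs are a culture model, when BMP signals switch on the transcription factors Prdm1, Prdm14 and Tfap2c, after which genes of naive pluripotency return and the somatic programme is held back. TET proteins oxidise 5-methylcytosine and so take part in DNA demethylation, and promoters of many germline genes carry DNA methylation in somatic cells. Without inducing cytokines, WT EpiLCs are known to leave pluripotency for somatic fates.

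Transcripts of rod photoreceptors and of the lens were counted in the TKO libraries without cytokines, although no label names such a tissue. Gnat1, the transducin of rods, was at 0 and 1.1 normalised counts in the TKO EpiLC libraries (replicates 1 and 2, counts divided by a size factor for each library) and at 539 and 1059 in the day 2 libraries without cytokines. It was at 2.27 and 6.21 at day 2 with cytokines and at 2.92 and 0.777 in the WT day 2 libraries. Summed over 22 rod genes, the level was 111 and 166 in TKO EpiLCs and 4277 and 8007 in TKO day 2 without cytokines. It was 6019.6 and 8705 in TKO day 6 without cytokines and 497 and 628 in TKO day 6 with cytokines. In the 12 libraries other than these day 2 and day 6 groups, TKO EpiLCs included, it was 84 to 189.5. Lens genes, which encode crystallins and lens membrane proteins, summed to 464 and 929 at day 2 without cytokines and to 63 to 208 in the 14 libraries other than TKO without cytokines. Of the 22 rod genes tested, 21 had an adjusted p below 0.05 and were higher at day 2, against 10.1% of all genes tested, as were 8 of 17 lens genes and 6 of 7 genes of the retinal pigment epithelium, 2 of 7 cone genes and 2 of 6 other retina genes. Cone genes summed to 284 and 298 before and 286 and 342 after, and blood genes to 58.5 and 107 and 87.7 and 90.3. These lists were written after the values had been seen.

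Rod and lens genes also differed between the replicates of day 2. Among 20 rod genes with a day 2 mean of at least 50, the ratio of replicate 2 to replicate 1 had a median of 1.89 and ran from 1.26 to 2.23. Over all 11660 tested genes at that level the median was 1.02, and 306 (2.62%) exceeded 1.5. Among the 369 of them called higher than in EpiLCs, 108 (29.3%) exceeded 1.5. The ratio is given beside part of the results that follow, and elsewhere it can be read from the day 2 values where these are given. Later counts and medians of the ratio within a gene list include members with a mean below 50. The shares of 2.62% and 29.3% do not. Both day 2 libraries hold the rod transcripts, so neither can be left out to obtain a comparison without them, and their part in the results was not tested. In the TKO day 2 libraries with cytokines the rod genes summed to 120.1 and 184. Changes in those libraries are given beside part of the results.

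**Figure D1:**
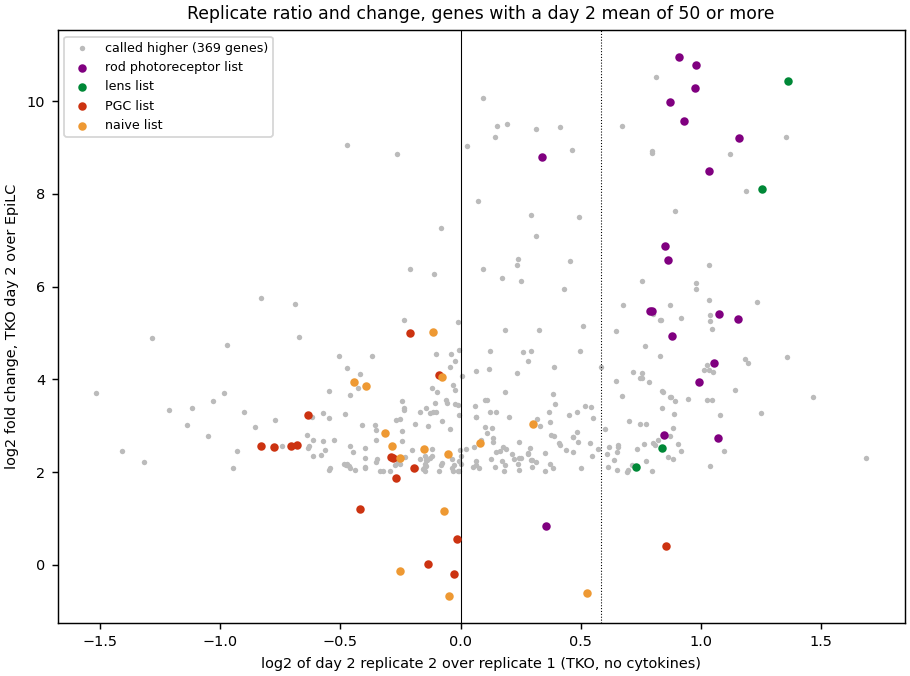
Each point is a gene with a mean of at least 50 normalised counts at TKO day 2 without cytokines. The horizontal axis is the log2 ratio of day 2 replicate 2 to replicate 1, with a dotted line at 1.5-fold, and the vertical axis is the log2 fold change of day 2 over TKO EpiLC. Grey points are genes called higher (369), and genes of the rod, lens, PGC and naive lists are coloured whether called or not. Rod genes centre on a ratio of 1.89, while the members of the PGC list that rose, at any level, have a median ratio of 0.783 and those of the naive list 0.912.

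Sequencing depth was 11286050 to 41257861 counts per library over the series, with 18665577 and 18917787 in the TKO EpiLC libraries and 12100902 and 12872533 in the day 2 libraries. The ribosomal RNA locus Rn45s took 33.1 and 37.3% of counts in EpiLCs and 16.2 and 20.9% at day 2. The number of genes with at least 1 count was 17517 and 17770 in EpiLCs and 18725 and 19087 at day 2.

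From EpiLC to day 2 without cytokines far more TKO genes went up strongly than down. In edgeR's quasi-likelihood test 784 (4.73%) of 16582 genes were called higher and 96 (0.579%) lower. A call required more than a 2-unit change on the log2 scale besides an adjusted p below 0.05, here and in what follows. At the adjusted p alone 1682 genes (10.1%) were higher and 1413 (8.52%) lower, a split that became 4751 and 273 with library sizes as the only scaling and 2283 and 788 when Rn45s was also left out of these. The genes called higher were mostly rare transcripts, with a median day 2 level of 43.6 normalised counts, and 342 of them had at most 3 counts in each EpiLC library. Those called lower had a median EpiLC level of 149.8. The median log2 fold change over all genes was 0.04. The count called higher fell to 481 without EpiLC replicate 2, to 515 without day 2 replicate 1 and to 461 without day 2 replicate 2, and the count called lower fell to 63 and 47 without day 2 replicate 1 and 2. Only genes whose day 2 replicates lay within 1.5-fold of each other gave 416 higher and 65 lower.

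The deleted genes were not absent from the counts. Tet1 was at 737 and 966 normalised counts in TKO EpiLCs, against 6232 and 6037 in WT EpiLCs. It was at 1937 and 1201 in TKO day 2 (log2 fold change 0.87, SE 0.32, adjusted p = 0.0664, day 2 replicate ratio 0.62), against 2027 and 1754 in WT day 2. Tet3 was at 131 and 159 in TKO EpiLCs and 165 and 238 at day 2, and at 2558 and 1964 in WT day 2. Tet2 rose from 31.7 and 102 to 355 and 405 (log2 fold change 2.50, SE 0.48, adjusted p = 0.0033), above the 287 and 200.4 of WT day 2. In EpiLCs Tet1 and Tet3 lay far below the WT libraries, and at day 2 Tet3 did as well. At day 2 the Tet1 libraries of the genotypes overlapped and both TKO libraries had more Tet2 than the WT ones. Summed over the 3 Tet genes, TKO day 2 libraries were at 2457 and 1843 without cytokines and at 981 and 1044 with them. Between these groups 2 of the 3 genes were higher without cytokines at an adjusted p below 0.05, against 2.47% of all genes. Tet2 was not among them (log2 fold change 0.11, adjusted p = 0.908). The cause of this difference was not tested. The counts cover all exons, and untranslated regions were not excised, so these values do not check the deletion of the open reading frames. For that the paper reports PCR genotyping of the deleted alleles and loss of the Tet mRNAs in knockout ESCs by RT-qPCR. It also reports that hydroxymethylation could not be detected in TKO cells at day 6.

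Genes of PGC specification rose in the TKO aggregates although no cytokine had been added. Of 16 genes on the list, 12 had an adjusted p below 0.05 and were higher, against 10.1% of all genes tested, none was lower, and the median log2 fold change was 2.31. Tfap2c, a transcription factor of PGC specification, was at 45.6 and 57.2 in EpiLCs and at 1789 and 1544 at day 2 (log2 fold change 5.01, SE 0.28, adjusted p = 2.25e-07). Prdm14, which represses DNA methylation and somatic genes in PGCs, went from 18.8 and 70.3 to 788 and 740.3 (log2 fold change 4.10, SE 0.40, adjusted p = 2.01e-05). For both genes each day 2 library lay above both EpiLC libraries by a wide margin, and the replicates of day 2 were close. Prdm1, the repressor that starts the PGC programme, was at 58.5 and 106 before and at 611 and 381 after (log2 fold change 2.59, SE 0.36, adjusted p = 2.71e-04). Dppa3, a protein that protects DNA methylation patterns in the egg and marks early PGCs, went from 5.95 and 22 to 105 and 58.9 (log2 fold change 2.56, SE 0.49, adjusted p = 0.00313). Nanos3, an RNA-binding protein needed for PGC survival, went from 11.9 and 15.4 to 55 and 45.7 (log2 fold change 1.87, SE 0.44, adjusted p = 0.00998). The last 3 genes were above both EpiLC libraries in each day 2 library.

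Surface and signalling genes of the list moved with these factors. Kit, the receptor for SCF, was at 68.4 and 211 and then 1027 and 629.7 (log2 fold change 2.56, SE 0.52, adjusted p = 0.00447), and Itgb3, which encodes CD61, was at 15.9 and 20.9 and then 211 and 136 (log2 fold change 3.22, SE 0.51, adjusted p = 8.32e-04). Alpl, the alkaline phosphatase used to stain pluripotent cells and PGCs, went from 398 and 776 to 3185 and 2622 (log2 fold change 2.29, SE 0.39, adjusted p = 0.00144). Ifitm1, Rhox6, Rhox9 and Sox15 also rose, by 2.08, 2.32, 2.53 and 1.21 on the log2 scale. The other 4 members did not pass the test: Ifitm3 (log2 fold change 0.55, SE 0.29, adjusted p = 0.191), Rhox5 (log2 fold change 0.40, SE 0.31, adjusted p = 0.387), Cbfa2t2 (log2 fold change 0.02, SE 0.23, adjusted p = 0.955) and Dnd1 (log2 fold change -0.19, SE 0.41, adjusted p = 0.774). None of the 12 members that rose had a day 2 replicate ratio above 1.5, and their median ratio was 0.783, against 1.89 for rod genes.

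Naive pluripotency genes, which are active in the preimplantation epiblast and in 2i/LIF culture, rose in the same way. Of 15 members 12 were higher, against 10.1% of all genes, and none lower, with a median log2 fold change of 2.57, which was 3.55 without EpiLC replicate 2. Nanog was at 665 and 1342 in EpiLCs and 6585 and 5399 at day 2 (log2 fold change 2.57, SE 0.28, adjusted p = 4.44e-05). Klf2 went from 70.4 and 234 to 2613 and 2477 (log2 fold change 4.05, SE 0.49, adjusted p = 9.39e-05), and Tbx3 from 51.6 and 70.3 to 2081 and 1924 (log2 fold change 5.03, SE 0.69, adjusted p = 2.71e-04). Zfp42, which encodes REX1, went from 422 and 694 to 3020.1 and 2915 (log2 fold change 2.40, SE 0.30, adjusted p = 1.27e-04), and Tfcp2l1 from 281 and 771 to 3212 and 3395 (log2 fold change 2.64, SE 0.35, adjusted p = 2.30e-04). The EpiLC replicates were not alike for several of these genes: Esrrb, an orphan nuclear receptor of the naive network, was at 239 and 1463 in replicates 1 and 2 and at 4627 and 3886 at day 2 (log2 fold change 2.31, SE 0.64, adjusted p = 0.0233). Nr0b1, Fbxo15 and Nr5a2 showed the same spread in EpiLCs, with 82.3 and 444, 90.3 and 352 and 10.9 and 60.5, and all 3 lay above it in both day 2 libraries. Fgf4, Dppa5a and Gbx2 did not pass the test, at log2 fold changes of -0.67, -0.13 and -0.60.

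**Figure D2:**
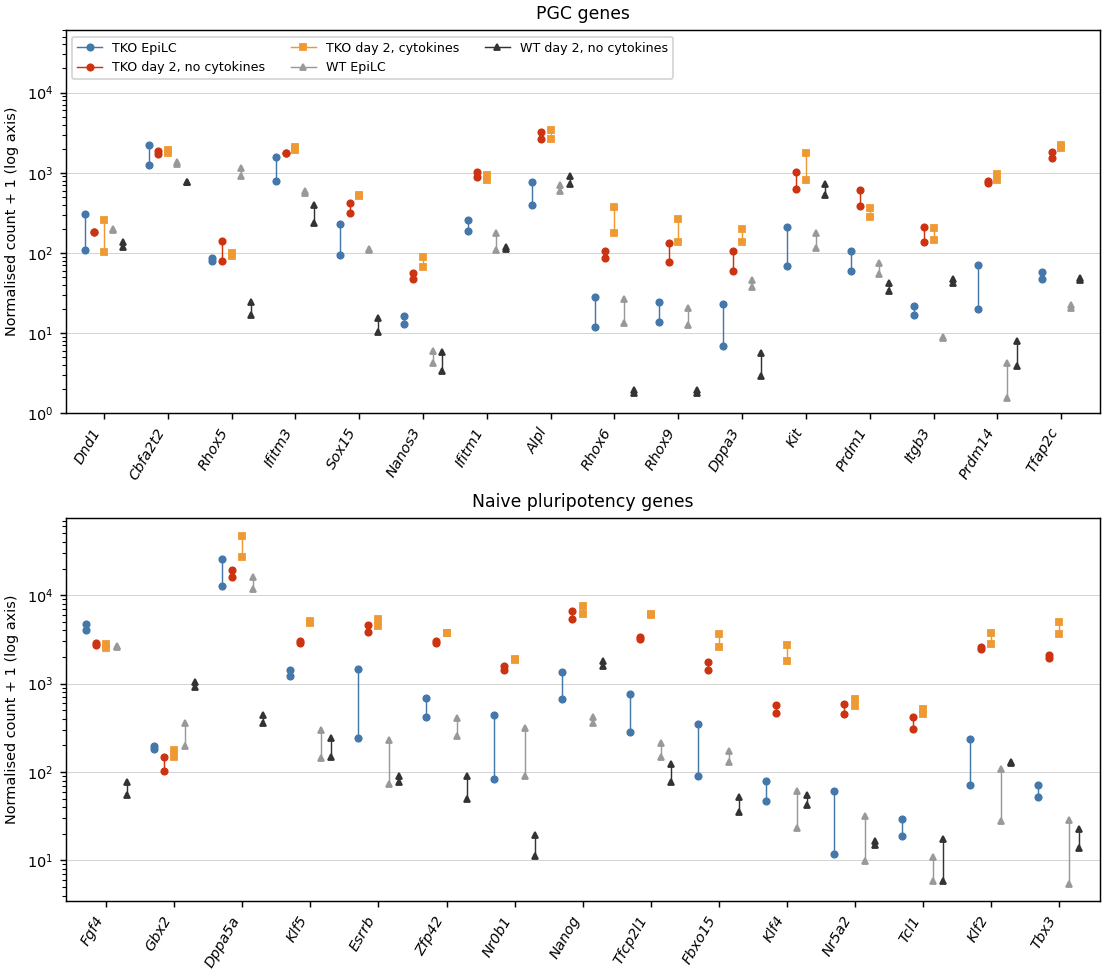
Normalised counts plus 1 on a log axis for the members of the PGC list (upper panel) and of the naive list (lower panel), ordered by their log2 fold change in TKO cells. Each symbol is 1 library and a line joins the 2 replicates of a group. For Tfap2c the TKO day 2 libraries sit at 1789 and 1544, far above the TKO EpiLC libraries at 45.6 and 57.2 and the WT day 2 libraries at 47.8 and 45.1.

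Of 11 core pluripotency genes 2 were higher and 1 lower, against 10.1% and 8.52% of all genes. Their median of -0.39 became 0.11 with library sizes as the only scaling. Sox2 rose from 1601 and 2733 to 5696 and 5522 (log2 fold change 1.36, SE 0.30, adjusted p = 0.00716) and Dppa2 from 387 and 368 to 915 and 804 (log2 fold change 1.18, SE 0.26, adjusted p = 0.00768), while Utf1 fell from 7727 and 10332 to 3657 and 3399.7 (log2 fold change -1.37, SE 0.32, adjusted p = 0.00956). Pou5f1, which encodes OCT4, was at 17739.5 and 18103 and then at 9805 and 10805, a difference that did not pass the test (log2 fold change -0.81, SE 0.42, adjusted p = 0.187).

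Formative genes, the signature of the EpiLC state, fell in part. Of 18 members 8 were lower and 1 higher, against 8.52% and 10.1% of all genes, with a median of -1.17. Pou3f1, a POU factor of the formative epiblast, went from 2953 and 2187 to 340.4 and 576 (log2 fold change -2.50, SE 0.29, adjusted p = 7.60e-05, ratio 1.69). The de novo DNA methyltransferases fell: Dnmt3a from 6222 and 13259 to 1839 and 2396 (log2 fold change -2.22, SE 0.29, adjusted p = 1.87e-04), Dnmt3b from 18014 and 16865 to 3916 and 5098 (log2 fold change -1.97, SE 0.28, adjusted p = 3.41e-04), and their cofactor Dnmt3l, of the DNA methylation list, from 3144 and 2754 to 734 and 656 (log2 fold change -2.10, SE 0.38, adjusted p = 0.00223). Fgf5, the standard marker of EpiLCs, fell from 2697 and 1665 to 601 and 577 (log2 fold change -1.90, SE 0.47, adjusted p = 0.0131). Lef1, Sox11, Tead2 and Sall2 fell too, by 2.01, 2.06, 1.18 and 1.07 on the log2 scale, while Wnt8a, a WNT ligand of the early streak, rose from 10.9 and 5.5 to 142 and 186 (log2 fold change 4.27, SE 0.86, adjusted p = 0.00412). Otx2, at 1833 and 3578 and then 1163 and 987, did not pass the test (log2 fold change -1.34, SE 0.84, adjusted p = 0.275). Of 16 DNA methylation enzymes and readers 4 were lower and 1 higher, against 8.52% and 10.1% of all genes. The formative count of lower genes was 6, 8, 5 and 3 without EpiLC replicates 1 and 2 and day 2 replicates 1 and 2 in turn.

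Genes of later germ cells showed no common direction. Of 18 piRNA pathway genes tested, 1 was higher and 3 lower, of 26 meiosis genes 3 and 4, and of 17 other late germline genes 2 and 3. Over all genes 10.1% were higher and 8.52% lower, so the counts of higher genes are near that share or below it. By the call limits 0, 1 and 2 genes of these lists in turn were higher and 0 lower. The medians were -0.11, -0.44 and -0.31, and with library sizes as the only scaling they became 0.36, 0.070 and 0.19. Stra8, the retinoic acid-induced gene of meiotic entry, was at 5.95 and 9.89 in EpiLCs and at 155 and 54.1 at day 2 (log2 fold change 3.71, SE 0.55, adjusted p = 6.62e-04), with its day 2 replicates far apart. Stag3, a meiotic cohesin, fell from 2253 and 3349 to 1256 and 972 (log2 fold change -1.34, SE 0.23, adjusted p = 0.0014). Tuba3a fell from 2385 and 3125 to 1045 and 827 (log2 fold change -1.57, SE 0.27, adjusted p = 0.00134). Like other tubulin genes it has close copies, and fragments of multiple origin were not counted.

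Two-cell-like genes, the transcripts of the mouse embryo at its first genome activation that also appear in a few ESCs at any time, went from near 0 to a low level. Of 10 genes tested, 7 were higher, against 10.1% of all genes, and none lower, and 2 of those that rose had a day 2 replicate ratio above 1.5. Zscan4d had no count in either EpiLC library and was at 120.4 and 129 at day 2, which is at least 39.7-fold higher when 3 counts per library are allowed for a count of 0 (adjusted p = 2.94e-05). Zscan4c went from 0 and 6.6 to 77.8 and 75.7 and Zscan4f from 0 and 1.1 to 51.9 and 55.3. The day 2 replicates of these 3 genes were nearly equal, with ratios of 1.07, 0.973 and 1.07, while those of Zfp352, at 8.3 and 20.4, gave 2.46. The fitted median of the list was 6.47 and was 2.80 with the 5 genes that had no EpiLC count set to their lower bound. The Zscan4 genes are near-identical copies of one another, so the values of single members are uncertain.

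Cholesterol synthesis genes fell. Of 24 genes of the list 22 were lower and 1 was higher, against 8.52% and 10.1% of all genes tested, with a median log2 fold change of -1.88. Insig1, which retains the sterol sensor in the endoplasmic reticulum, fell from 3601 and 4926 to 839 and 753 (log2 fold change -2.43, SE 0.19, adjusted p = 3.53e-06). Msmo1, which removes methyl groups from the sterol ring, fell from 2166 and 2192 to 479 and 379 (log2 fold change -2.36, SE 0.20, adjusted p = 6.02e-06), and Cyp51, the lanosterol demethylase, from 3132 and 3858 to 918 and 860.4 (log2 fold change -1.99, SE 0.18, adjusted p = 8.73e-06). Lss, which closes the sterol ring, fell from 3603 and 3476 to 831 and 668 (log2 fold change -2.25, SE 0.25, adjusted p = 4.71e-05). The transcription factor Srebf2, which activates these genes when sterols are low, fell from 7003 and 8877 to 3231 and 2893 (log2 fold change -1.39, SE 0.21, adjusted p = 4.94e-04). In each gene named so far in this group both day 2 libraries lay below both EpiLC libraries. Sc5d did not pass the test (log2 fold change -0.50, SE 0.22, adjusted p = 0.123), and Ebp, the sterol isomerase, rose from 123 and 111 to 249 and 219.9 (log2 fold change 0.99, SE 0.21, adjusted p = 0.00532).

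Amino acid response and serine synthesis genes also fell. Of 16 members 12 were lower, against 8.52% of all genes, and none higher, with a median of -1.27. Slc7a5, the large neutral amino acid transporter, fell from 7419 and 6860.2 to 2908 and 3294 (log2 fold change -1.22, SE 0.21, adjusted p = 0.00159), and its partner chain Slc3a2 from 4543 and 4845 to 2394 and 2467 (log2 fold change -0.96, SE 0.17, adjusted p = 0.00201). Phgdh, the first enzyme of serine synthesis, fell from 3292 and 2794 to 976 and 1099.6 (log2 fold change -1.57, SE 0.33, adjusted p = 0.00556), and Psph, the last, from 791 and 789 to 237 and 263 (log2 fold change -1.67, SE 0.33, adjusted p = 0.00353). Trib3 and Chac1, targets of the transcription factor ATF4, fell by 2.07 and 1.69 on the log2 scale, and Atf4 itself by 1.02. Asns, asparagine synthetase, did not pass the test (log2 fold change -0.42, SE 0.28, adjusted p = 0.3). The count of lower genes was 10, 8, 3 and 6 without EpiLC replicates 1 and 2 and day 2 replicates 1 and 2 in turn, while that of the cholesterol list was 22, 22, 22 and 20.

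Promoter letters are shown for both groups because most of their members fell. In RefSeq windows of 300 bases from 250 before each start (GRCm38.p6), the amino acid response element word TGATGNAA, read on either strand, was found in 6 of 15 list genes with a window and in 2.81% of the 12819 tested genes with one. The sterol regulatory element word TCACNCCAC was found in 1 of 16 cholesterol genes and in 1.43% of all. The word is in capitals below with 10 bases on either side, written 5′ to 3′ on the strand of the gene. A match describes letters and is not a shown site of binding. Of 11 list genes with a window that fell in the amino acid list, 3 hold the word, which are the first 3 shown, and the other 3 genes that hold it, Asns, Atf3 and Slc7a11, are not among those that fell.
Chac1 (chromosome 2, plus strand, chr2:119351039-119351066): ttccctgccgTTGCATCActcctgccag
Trib3 (chromosome 2, minus strand, chr2:152344029-152344056): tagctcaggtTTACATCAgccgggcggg
Nupr1 (chromosome 7, minus strand, chr7:126625563-126625590): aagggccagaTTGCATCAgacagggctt
Asns (chromosome 6, minus strand, chr6:7693215-7693242): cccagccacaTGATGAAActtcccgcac
Atf3 (chromosome 1, minus strand, chr1:191183426-191183453): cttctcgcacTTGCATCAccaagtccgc
Slc7a11 (the first of 2 matches, chromosome 3, minus strand, chr3:50443643-50443670): cctggagaatTTGCATCAtcatgcagcc
Hmgcs1 (chromosome 13, plus strand, chr13:119690204-119690232): cgtcaccgtcTCACCCCACttcccaggtc
Of these genes Chac1, Trib3, Nupr1 and Hmgcs1 fell at day 2, by 1.69, 2.07, 1.74 and 1.01 on the log2 scale, while Asns, Atf3 and Slc7a11 did not pass the test (-0.42, -1.33 and -0.22).

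**Figure D3:**
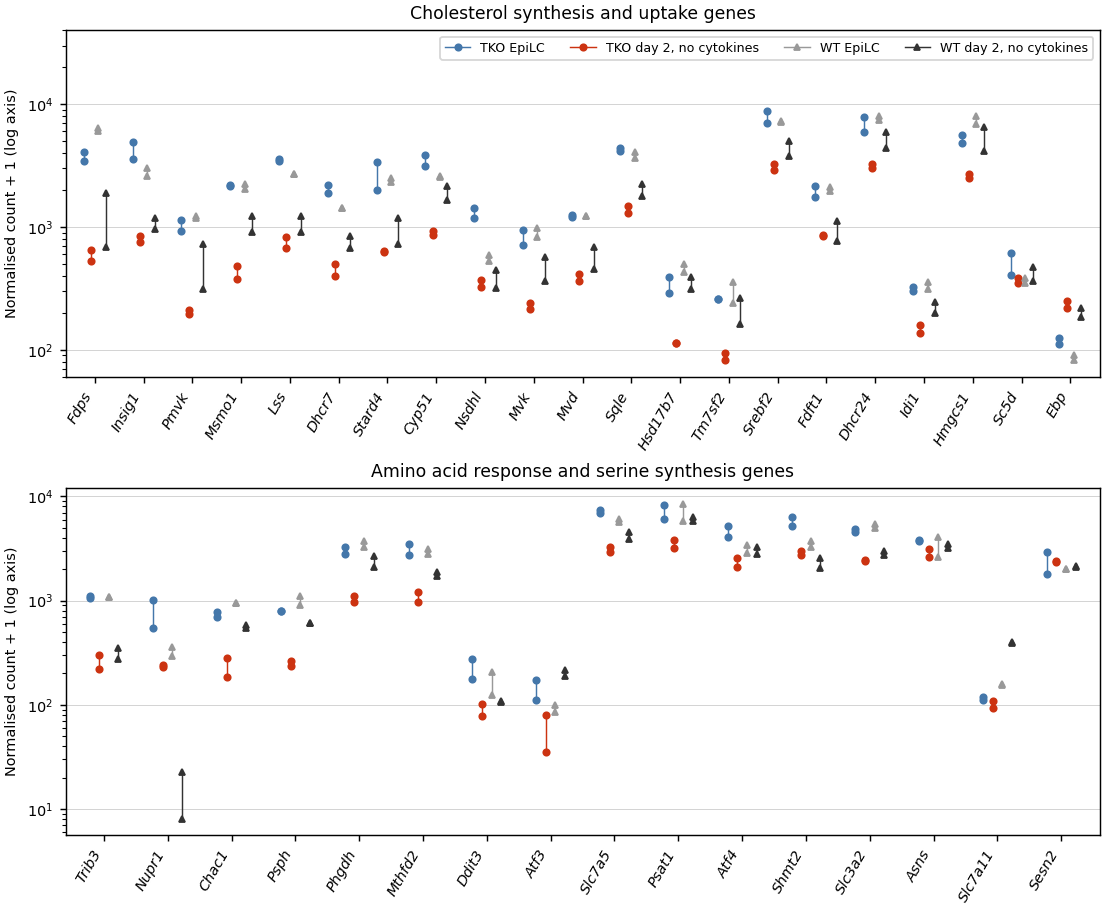
Normalised counts plus 1 on a log axis for 21 of the 24 genes of the cholesterol list (upper panel) and the amino acid response list (lower panel), ordered by the log2 fold change in TKO cells. Each symbol is 1 library and lines join replicates. Of 24 cholesterol genes 22 fell in TKO cells and 15 in WT cells, at an adjusted p below 0.05, against 8.52% and 15.7% of all genes.

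Somatic genes rose in part, in the libraries that also hold the rod and lens RNA. Of 26 neural genes 8 were higher, against 10.1% of all genes, and none lower (median 1.04), and 2 of these had a day 2 replicate ratio above 1.5. Sox1, the earliest neural plate marker, was at 83.3 and 19.8 in EpiLCs and 37.4 and 39.7 at day 2, and Neurog2, which drives neurogenesis, was at 0 and 1.2 at day 2. Tubb3, a neuronal tubulin, rose from 162 and 215 to 1081 and 1497 (log2 fold change 2.76, SE 0.35, adjusted p = 1.57e-04, day 2 replicate ratio 1.38). Pax6, a transcription factor of the eye and the neural tube, rose from 7.93 and 8.79 to 64.3 and 43.3 (log2 fold change 2.67, SE 0.57, adjusted p = 0.00612, ratio 0.672). Irx3, a homeobox gene of the neural tube, rose from 40.7 and 34.1 to 101 and 112 (log2 fold change 1.49, SE 0.35, adjusted p = 0.0101, ratio 1.11). Of 11 surface ectoderm and neural crest genes 6 were higher (median 2.99), against 10.1% of all genes, and 4 of these 6 had a day 2 replicate ratio above 1.5. Tfap2a, Dlx5 and Sox9 were at 325 and 544, 67.5 and 138 and 46.7 and 85.3 at day 2, with ratios of 1.68, 2.05 and 1.83. From EpiLC to day 2 with cytokines 3 neural genes were higher and 1 lower (median 0.03). Of the surface ectoderm genes 3 were higher and 0 lower there (median 1.13), against 7.88% and 6.39% of all genes. Without against with cytokines at day 2, neural genes gave 4 higher and 0 lower and surface ectoderm genes 3 and 0, against 2.47% and 2.05%. With EpiLC replicates 1 and 2 and then day 2 replicates 1 and 2 left out in turn, the neural count was 5, 3, 3 and 2 and the surface ectoderm count 3, 3, 3 and 4.

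Of 18 primitive streak and mesoderm genes tested 5 were higher and none lower (median 1.02), against 10.1% and 8.52% of all genes. Of these 5 genes 4 had a ratio above 1.5. With cytokines 4 genes of the list were higher and 1 lower (median 0.59), against 7.88% and 6.39% of all genes. Col1a1, the main collagen of connective tissue, went from 33.7 and 42.9 to 1087 and 1929 (log2 fold change 5.28, SE 0.66, adjusted p = 1.37e-04, ratio 1.78). It was also the 1 gene of the list that passed without against with cytokines at day 2 (log2 fold change 4.35, adjusted p = 0.00182). In that comparison 2.47% of all genes were higher and 2.05% lower. T, or brachyury, was at 14.9 and 3.3 and then 76.8 and 148, and Mesp1, which marks nascent mesoderm, was at 1.98 and 1.10 in EpiLCs and at 1.04 and 0 at day 2. Evx1, a homeobox gene of the posterior streak, had no EpiLC count and was at 42.6 and 36.1 at day 2, at least 12.5-fold higher (adjusted p = 4.26e-04, ratio 0.847). Of 14 muscle genes 6 were higher and 0 lower, and with cytokines 1 was higher and 1 lower. Among the 6 was Acta1, the skeletal muscle actin, at 8.93 and 19.8 and then 654 and 1288 (ratio 1.97). It was at 383 and 597 in TKO day 2 with cytokines and at 1975 and 1887 in WT day 2. The streak and mesoderm count was 2, 2, 4 and 2 without EpiLC replicates 1 and 2 and day 2 replicates 1 and 2 in turn. Of 11 endoderm genes 1 was higher and 1 lower, near the shares of 10.1% and 8.52% over all genes. Foxa1 was at 6.94 and 5.5 and then 38.4 and 33.6 (log2 fold change 2.50, SE 0.55, adjusted p = 0.00721), while Sox17, a transcription factor of definitive endoderm, fell from 20.8 and 26.4 to 4.15 and 3.61 (log2 fold change -2.58, SE 0.64, adjusted p = 0.0133).

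Of 30 Hox genes tested, which pattern the body axis, 10 were higher and none lower, against 10.1% and 8.52% of all genes. With cytokines 10 were higher and 0 lower, against 7.88% and 6.39%. The ratios and levels that follow are those without cytokines. Among those that rose the median day 2 replicate ratio was 0.882, and 2 had a ratio above 1.5. Hoxa5 was at 1.98 and 3.3 and then 96.5 and 49.3 (log2 fold change 4.73, SE 0.66, adjusted p = 4.18e-04). Its level was low, and the fitted median of 2.53 became 2.24 with the 6 genes that had no EpiLC count at their bound. The Hox count was 8, 5, 6 and 6 without EpiLC replicates 1 and 2 and day 2 replicates 1 and 2 in turn. Of 15 retinoic acid genes 5 were higher and none lower (median 0.75), against 10.1% and 8.52% of all genes, and with cytokines 4 were higher and 1 lower (median 0.65). Cyp26a1, which breaks down retinoic acid, went from 2.98 and 2.2 to 70.6 and 111 (log2 fold change 5.04, SE 0.70, adjusted p = 3.17e-04, ratio 1.57).

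Among BMP pathway genes 9 of 22 were higher and 1 lower (median 0.91), against 10.1% and 8.52% of all genes, and 4 of those that rose had a day 2 replicate ratio above 1.5. From EpiLC to day 2 with cytokines 7 were higher and 1 lower (median 0.81), against 7.88% and 6.39% of all genes. The ligand Bmp4 rose from 65.5 and 103 to 353 and 538 (log2 fold change 2.39, SE 0.39, adjusted p = 9.50e-04, ratio 1.53). The direct targets Id1 and Id3 rose from 54.6 and 28.6 to 199 and 314 (log2 fold change 2.60, SE 0.71, adjusted p = 0.0209, ratio 1.57) and from 21.8 and 55 to 232 and 302 (log2 fold change 2.79, SE 0.73, adjusted p = 0.0167). The extracellular inhibitors went both ways: Nog, which encodes noggin, rose from 1.98 and 4.4 to 72.6 and 150.2 (log2 fold change 5.08, SE 0.69, adjusted p = 2.67e-04, ratio 2.07), and Chrd, which encodes chordin, fell from 175 and 160.5 to 68.5 and 51.7 (log2 fold change -1.49, SE 0.37, adjusted p = 0.0131). Grem1, another inhibitor, had no EpiLC count and was at 78.9 and 90.1 at day 2, at least 26.9-fold higher. The BMP count of higher genes was 6, 6, 6 and 5 without EpiLC replicates 1 and 2 and day 2 replicates 1 and 2 in turn.

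The lists of this paragraph stand against shares over all genes of 10.1% higher and 8.52% lower. Of 12 LIF and STAT3 genes 4 were higher and 1 lower (median 0.43). The receptor chain Il6st rose from 497 and 765 to 1205 and 1162 (log2 fold change 0.89, SE 0.20, adjusted p = 0.00745), and Klf4, a STAT3 target of the naive network, from 45.6 and 79.1 to 462 and 569.6 (log2 fold change 3.04, SE 0.39, adjusted p = 1.58e-04). Of 22 FGF and ERK genes 2 were higher and 6 lower, with the feedback inhibitor Spry1 falling from 600.1 and 871 to 315 and 273 (log2 fold change -1.33, SE 0.23, adjusted p = 0.00135). Of 19 WNT genes tested 5 were higher and 1 lower (median 0.95). Notum, a secreted WNT inhibitor, rose from 7.93 and 52.8 to 414 and 387 (log2 fold change 3.73, SE 0.67, adjusted p = 0.00193). The count of lower FGF and ERK genes was 3, 3, 1 and 2 without EpiLC replicates 1 and 2 and day 2 replicates 1 and 2 in turn. Nodal genes gave 1 higher and 2 lower of 15, and Notch genes 1 and 2 of 12. The counts of higher FGF and ERK, Nodal and Notch genes are near the share over all genes or below it. The medians were -0.49 for FGF and ERK, 0.03 for Nodal and 0.17 for Notch genes.

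None of the 18 glycolysis genes was higher and 6 were lower (median -0.71), with Ldha, lactate dehydrogenase, going from 16269.6 and 26781 to 8169.7 and 11287 (log2 fold change -1.16, SE 0.28, adjusted p = 0.012). Cell cycle genes gave 0 higher and 4 lower of 22, repressive chromatin genes 0 and 5 of 16, hypoxia genes 0 and 1 of 11 and p53 targets 1 and 1 of 11. Imprinted genes gave 3 higher and 0 lower of 28, interferon-stimulated genes 2 and 1 of 12, collagen and basement membrane genes 4 and 0 of 16, epithelial and mesenchymal genes 5 and 2 of 17 and trophoblast genes 2 and 1 of 8. Over all genes tested the shares were 10.1% higher and 8.52% lower, and the share of imprinted genes that were higher is near the first of these. The medians ran from -0.88 for hypoxia genes and -0.48 for cell cycle genes, through -0.06 (epithelial), 0.13 (p53), 0.16 (repressive chromatin), 0.19 (collagen) and 0.30 (interferon), to 0.55 for imprinted and 0.58 for trophoblast genes. The collagen list shares Col1a1, and 2 of its members that rose had a day 2 replicate ratio above 1.5. Tead4, a factor of the trophectoderm, rose from 63.5 and 107 to 387 and 460.3 (log2 fold change 2.30, SE 0.25, adjusted p = 4.14e-05). Nid1, a basement membrane linker, rose from 104 and 182 to 936 and 711 (log2 fold change 2.51, SE 0.37, adjusted p = 4.86e-04). Mest, an imprinted gene of early mesoderm, rose from 22.8 and 9.89 to 163 and 259.6 (log2 fold change 3.65, SE 0.67, adjusted p = 0.00229, ratio 1.59). Without against with cytokines at day 2 its log2 fold change was 4.05 (adjusted p = 0.00663). In that comparison the imprinted list gave 2 higher and 1 lower of 28, against 2.47% and 2.05% of all genes. Adm, a hypoxia-induced peptide hormone, fell from 12.9 and 135 to 9.34 and 3.61 (log2 fold change -3.48, SE 1.11, adjusted p = 0.0411), and Myc, a driver of growth, from 928 and 549.6 to 251 and 310.0 (log2 fold change -1.41, SE 0.33, adjusted p = 0.00964). Vim, an intermediate filament of mesenchyme, rose from 422 and 469 to 2167 and 3969 (log2 fold change 2.77, SE 0.42, adjusted p = 6.12e-04, ratio 1.83). Samd9l, an interferon-stimulated gene, rose from 98.2 and 118 to 640.3 and 590.0 (log2 fold change 2.50, SE 0.39, adjusted p = 6.68e-04). Among the lists of this paragraph, leaving out 1 library moved the glycolysis count to 10, 1, 1 and 2, the repressive chromatin count of lower genes to 4, 2, 1 and 0 and the cell cycle count of lower genes to 4, 1, 0 and 1, in the order of EpiLC replicates 1 and 2 and day 2 replicates 1 and 2.

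The 12 genes with the largest log2 fold changes, among those with a mean of at least 50 and no overlap between the groups, were mostly rod and lens genes. Among them Grk1, Rp1, Gnat1 and Sag belong to rods and Crybb2 and Cryaa to the lens, and 10 of the 12 had a day 2 replicate ratio above 1.5. Gnat1 was higher at day 2 by a ratio of 1495 with a 95% counting interval of 268 to 59103. Crybb2, a crystallin, and Grk1, a rod kinase, had no EpiLC count and rose at least 51.4-fold and 73.7-fold. Ankrd1 and Actc1, genes of striated muscle, were at 125 and 219 and at 360.1 and 821 at day 2, and Gm13498 at 222 and 386. The 2 genes with replicates alike were Zscan4d and Gm12794, the latter at 0 and 1.1 and then 145 and 153 (ratio 1.05). Among genes with at most 3 counts in each EpiLC library, the highest at day 2 were Gnat1, Actc1, Gm13498, Sag, Tnc and Grk1.

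The 12 largest falls were of another kind. Cbln4, a secreted synaptic protein, fell from 143 and 86.8 to 5.19 and 3.61 (log2 fold change -4.67, SE 0.84, adjusted p = 0.00232) and Mt3, a metallothionein, from 168 and 143 to 10.4 and 4.81 (log2 fold change -4.32, SE 0.63, adjusted p = 4.22e-04). Slc35d3 fell from 295 and 303 to 32.2 and 31.2 (log2 fold change -3.24, SE 0.36, adjusted p = 5.02e-05). The transcript 9430069I07Rik fell from 71.4 and 134 to 10.4 and 9.61, and Fut1, a fucosyltransferase, from 138 and 181 to 11.4 and 26.4. In 5 more the EpiLC replicates differed several-fold: Cdk5r2 was at 279 and 1204, Aire at 57.5 and 255, Bhlha15 at 52.6 and 353, Nsg2 at 57.5 and 297 and Ier3 at 110.1 and 398. Without EpiLC replicate 2 the falls of Aire, Bhlha15, Nsg2, Ier3 and Fut1 no longer passed the test, at adjusted p = 0.0673, 0.163, 0.0929, 0.101 and 0.0530. Those of Bhlha15, Nsg2, Ier3 and Fut1 did not pass without day 2 replicate 1 (0.0581, 0.0541, 0.0858 and 0.123), nor those of Aire, Bhlha15 and 9430069I07Rik without day 2 replicate 2 (0.0508, 0.0631 and 0.0508).

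Whether TKO cells changed differently from WT cells over the same 2 days was tested as the difference between the changes, which share no library. Of the 16582 genes 689 (4.16%) were called higher in the TKO change and 372 (2.24%) lower, and at the adjusted p alone 1009 (6.08%) and 1026 (6.19%). Of the 784 genes called higher in the TKO change, 198 had an adjusted p below 0.05 for a higher change than in WT. By the same limits 251 of the 784 were called higher in the WT change as well, 24 were called lower there and 509 were not called. Of the 96 called lower, 26 were lower in WT too, 2 were higher and 68 were not called. Among genes not called in the TKO change, 874 were called higher in WT, 724 lower and 14104 in neither direction. Of the 59 tested genes of the eye lists, 14 are among the 689, against 4.16% of all genes. Of the PGC list 10 of 16 were higher and none lower, against 6.08% and 6.19% of all genes, with a median difference of 2.22. In WT cells Tfap2c was at 19.3 and 21.1 and then 47.8 and 45.1 (difference between genotypes 3.79, SE 0.42, adjusted p = 5.99e-05), and Prdm1 at 74 and 53.9 and then 40.9 and 32.6 (difference 3.31, SE 0.52, adjusted p = 8.50e-04). For Prdm14, at 3.22 and 0.556 and then 2.92 and 6.99 in WT, the difference did not pass the test (2.13, SE 1.47, adjusted p = 0.395), although the TKO levels at day 2 were above the WT levels.

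Naive genes differed too, with 12 of 15 higher and 1 lower (median 3.52), against 6.08% and 6.19% of all genes. Zfp42 fell in WT from 408 and 251 to 89.7 and 48.2 (difference 4.60, SE 0.44, adjusted p = 1.79e-05), and Dppa5a from 15917 and 11619 to 355 and 442 (difference 4.92, SE 0.54, adjusted p = 5.06e-05). Nanog rose in WT as well, from 423 and 359 to 1577 and 1782, and its difference did not pass the test (0.41, SE 0.38, adjusted p = 0.553). In WT cells 13 of 18 piRNA, 16 of 26 meiosis and 14 of 17 other late germline genes were lower, against 15.7% of all genes in the WT change, and the change was higher in TKO than in WT for 9 piRNA genes, 14 meiosis genes and 12 others, against 6.08% of all genes, and lower for 2, 0 and 0, against 6.19%. Sohlh2, a germ cell transcription factor, was at 206 and 221 and then 7.8 and 5.44 in WT and at 176 and 248 and then 102 and 136 in TKO cells (difference 4.11, SE 0.48, adjusted p = 8.55e-05). The formative list had medians of -1.17 in TKO and -1.12 in WT. Of its 18 genes 4 differed to the lower and 1 to the higher side, against 6.19% and 6.08% of all genes.

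Of 26 neural genes 20 were higher at day 2 in WT cells, where 18.6% of all genes were, and 8 in TKO cells, where 10.1% were. Sox1 was at 3293 and 1498 in WT day 2 and at 37.4 and 39.7 in TKO day 2 (difference -7.40, SE 0.75, adjusted p = 3.03e-05). Sox21, a SOX factor of neural progenitors, was at 943 and 204 against 47.7 and 66.1 (-5.53, SE 0.90, adjusted p = 0.00111), and Foxb1, a forkhead gene of the neural tube, at 189 and 325 against 1.04 and 3.61 (-7.15, SE 1.99, adjusted p = 0.0361). Crabp1, a cytoplasmic retinoic acid binding protein, was at 6773 and 2049 against 46.7 and 81.7 (-5.36, SE 0.61, adjusted p = 7.25e-05), and Cyp26c1, which degrades retinoic acid, at 1171 and 349 against 11.4 and 9.61. Casr, the calcium-sensing receptor, was at 462 and 128 against 11.4 and 3.61. Across the neural list the TKO change was lower than the WT change for 4 of 26 genes and higher for none, against 6.19% and 6.08% of all genes. The median change was 1.04 in TKO and 3.26 in WT. Of 24 cholesterol genes 7 had a lower change in TKO than in WT cells and none a higher one, against the same 6.19% and 6.08%. Msmo1 fell by 2.36 on the log2 scale in TKO and by 0.93 in WT (difference -1.42, SE 0.27, adjusted p = 0.00281). The genes with the highest differences included the rod genes Prph2, Gnat1 and Sag, together with Gm13498 and Gm21761.

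**Figure D4:**
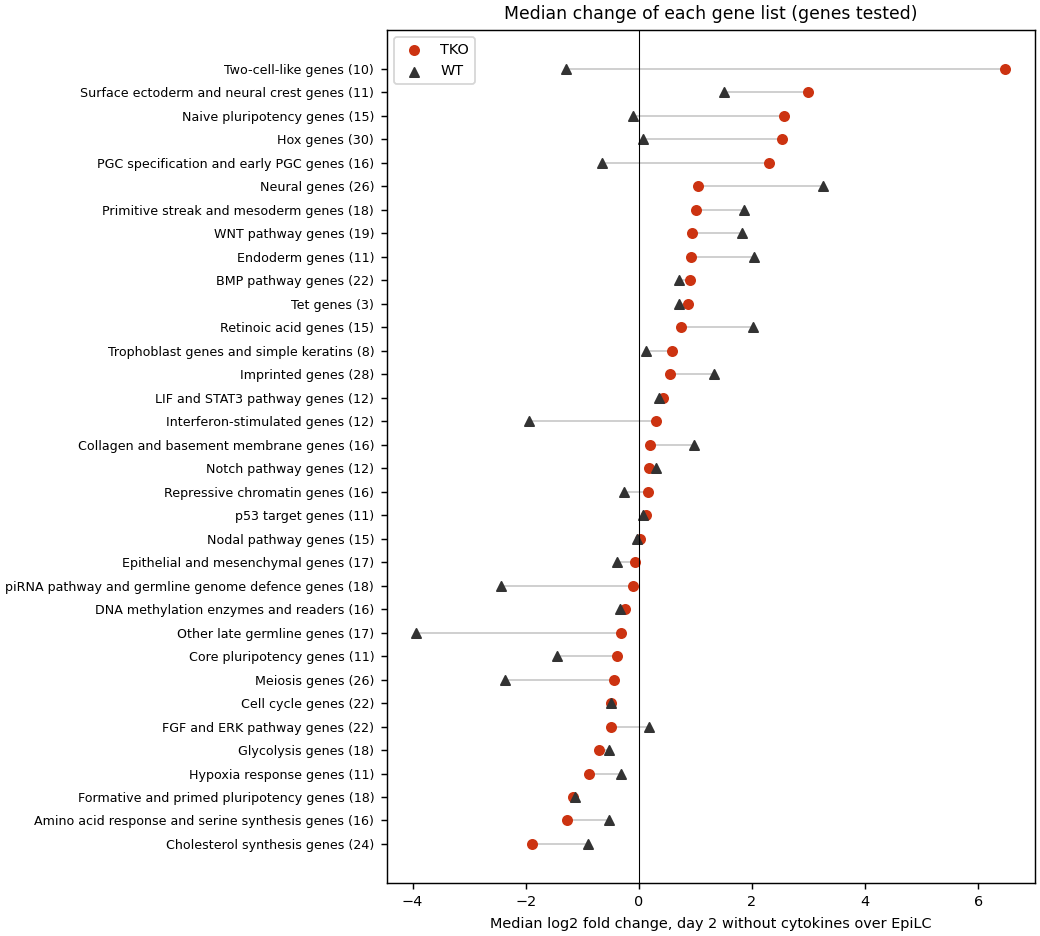
Median log2 fold change from EpiLC to day 2 without cytokines of each gene list, with the number of genes tested in brackets, in TKO cells (circles) and WT cells (triangles). The PGC list lies at 2.31 in TKO and -0.65 in WT, the neural list at 1.04 and 3.26, and the cholesterol list at -1.88 and -0.89. The medians of the two-cell-like and Hox lists rest on genes with few or no counts in EpiLCs.

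To see what the cytokines added, TKO day 2 libraries without cytokines were set against those with them. Without cytokines 236 genes (1.42%) were called higher and 26 (0.157%) lower, and at the adjusted p alone 409 (2.47%) and 340 (2.05%). The genes lower without cytokines include known targets of the factors in the mix. Socs3, the feedback inhibitor induced by LIF through STAT3, was at 58.1 and 106 without and 910.1 and 828 with cytokines (log2 fold change -3.43, SE 0.32, adjusted p = 7.12e-05). Junb, another gene that STAT3 activates, was at 234 and 279 and 1069 and 1084 (log2 fold change -2.09, SE 0.27, adjusted p = 8.92e-04), and Klf4 at 462 and 569.6 and 2748 and 1815 (log2 fold change -2.16, SE 0.35, adjusted p = 0.00377). Id1, the BMP target, was at 199 and 314 and 1947 and 2266 (log2 fold change -3.06, SE 0.64, adjusted p = 0.0164). Across the LIF and STAT3 list 4 of 12 were lower and none higher, against 2.05% and 2.47% of all genes. Across the BMP list 1 of 22 was lower, and 2 were higher, the inhibitors Nog (log2 fold change 2.49, adjusted p = 0.0229) and Grem1 (adjusted p = 0.00216). Igf2, an imprinted growth factor, was at 107 and 113 and 911 and 1230.1 (log2 fold change -3.30, SE 0.79, adjusted p = 0.031), and Aqp3, a water and glycerol channel, at 387 and 358 and 2875 and 2341 (log2 fold change -2.82, SE 0.25, adjusted p = 3.30e-05). S100a6 and Hist1h4m, the others of the 6 lowest, gave -2.74 and -2.64 on the log2 scale.

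For the PGC list no member passed the test in either direction, with a median of -0.22. Tfap2c was at 1789 and 1544 without and 2007 and 2230.5 with cytokines (log2 fold change -0.36, SE 0.22, adjusted p = 0.343), and Prdm14 at 788 and 740.3 and 817 and 962 (log2 fold change -0.24, SE 0.33, adjusted p = 0.71). The 2 changes share the EpiLC libraries. The median change of the list from these was 2.31 without cytokines and 2.43 with them, and that of the naive list 2.57 and 2.85. A p that misses the threshold does not show equal levels: Dppa3 was at 105 and 58.9 and 197 and 137 (log2 fold change -1.04, SE 0.40, adjusted p = 0.138). In the naive list Klf4 was the single gene that passed. Formative genes were higher without cytokines for 3 of 18, where 2.47% of all genes were, Pou3f1 with 340.4 and 576 against 235 and 117 (log2 fold change 1.36, SE 0.30, adjusted p = 0.0195). Cholesterol genes gave 0 higher and 1 lower of 24, against 2.47% and 2.05% of all genes. From the EpiLC libraries 23 of them were lower with cytokines, where 6.39% of all genes were lower and 7.88% higher.

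Rod and lens genes led the genes higher without cytokines. Of the 59 tested genes of the eye lists, 29 are among the 236 called higher, against 1.42% of all genes. The 6 highest, which include Rp1, Crybb2, Rbp3, Gnat1 and Grk1, are all rod or lens genes with a day 2 replicate ratio above 1.5. With genes limited to day 2 replicates within 1.5-fold, 92 were higher and 15 lower. Leaving out 1 library left 128 and 9 without replicate 1 of the libraries lacking cytokines, 51 and 13 without replicate 2, 41 and 13 without replicate 1 of those with cytokines, and 73 and 17 without replicate 2.

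**Figure D5:**
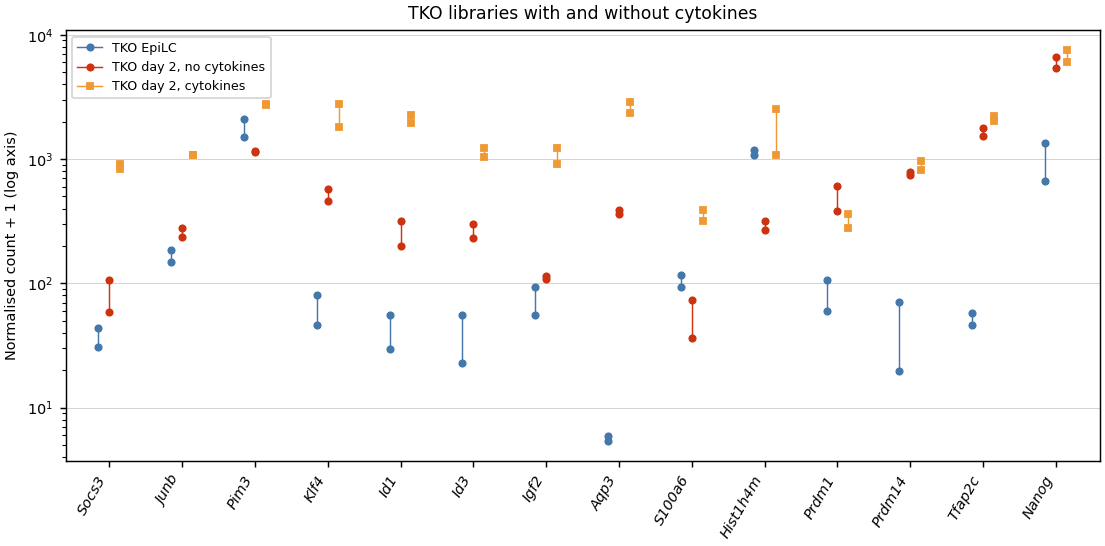
Normalised counts plus 1 on a log axis in TKO EpiLCs and in TKO day 2 aggregates without and with cytokines, for LIF and BMP responsive genes, the remaining genes lowest without cytokines, and 4 genes of the PGC and naive lists. Each symbol is 1 library. Socs3 is at 58.1 and 106 without and at 910.1 and 828 with cytokines, while for Prdm14 both conditions lie far above the EpiLC libraries.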

How the data were processed

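Total RNA depleted of ribosomal RNA was sequenced by the authors from directional libraries. According to the submitters' processing notes and the study's methods, reads were trimmed with Trim Galore (0.5.0) and cutadapt (1.16), aligned with STAR (2.7.1a) to mm10 and counted by featureCounts (Subread 1.5.2) over the exons of refGene genes, without strand, so that overlapping antisense genes cannot be told apart, and fragments of multiple origin were not counted. The deposited table holds raw counts for 25239 genes in 18 libraries, and 33 rows without values were left out. Groups came from the GEO labels. All 18 libraries entered 1 edgeR (4.0.16, R 4.3.3) quasi-likelihood model of 9 groups with TMM factors, after filterByExpr left 16582 genes, and p-values were adjusted by Benjamini-Hochberg over these. Calls had a log2 fold change of over 2 in size at an adjusted p below 0.05. The SE is the log2 fold change over the root of its F statistic. Levels are counts over DESeq2 (1.42.0) size factors. Genes were named by rule: the 12 most raised and 12 most lowered with a mean of at least 50 and groups that do not overlap, 6 each for the other comparisons, the list members with the smallest adjusted p, the open PGC, naive, core and formative lists, and the highest day 2 genes with at most 3 EpiLC counts. Other named members were chosen for their role after values were seen. Comparisons, lists and members were chosen with earlier results of these data known, and the eye, muscle, liver and blood lists and promoter words after the values were seen. A few genes that these rules choose are not reported here, and counts and sums of lists include them. Counting intervals cover counting error only. Only the main edgeR fit was run on simulated data, in which every gene had the same spread, and the alternative fits were not. The alternatives were another tool (DESeq2), scaling, filters, fewer libraries, a replicate block and leaving out single libraries.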

Additional observations from a re-analysis of the deposited data

Results flagged for a closer look

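The change from EpiLC to day 2 without cytokines differed between TKO and WT cells, by the test of the difference in edgeR, for the genes with the largest differences on either side. On the log2 scale the TKO change exceeded the WT change by 10.67 for Prph2, 10.17 for Gm13498, 9.24 for Gnat1, 8.92 for Gm21761 and 8.86 for Sag. These are fitted values of genes near 0 in EpiLCs, and Prph2, Gnat1 and Sag are rod genes. The difference was -10.72 for Cyp26c1, -7.40 for Sox1, -7.15 for Foxb1, -7.00 for Casr, -5.53 for Sox21 and -5.36 for Crabp1, all of which were higher in both WT day 2 libraries than in both TKO day 2 libraries.

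Rod transcripts were also present in libraries that no comparison uses. The 22 rod genes summed to 6020 and 8705 normalised counts in replicates 1 and 2 of TKO day 6 without cytokines, and to 497 and 628 in TKO day 6 with cytokines, against 84 to 189.5 in the 12 libraries left beside these and TKO day 2 without cytokines. Their origin was not tested.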

How the results depend on the processing

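From EpiLC to day 2, 784 genes were called higher and 96 lower. With library sizes as the only scaling, which moves the median of all genes from 0.04 to 0.55, the counts were 1399 and 36. They were 1318 and 618 at a log2 limit of 1, 445 and 58 at an adjusted p below 0.01, and 416 (65 lower) for genes with day 2 replicates within 1.5-fold, a limit chosen after seeing the data. The difference between genotypes gave 926 lower genes at a log2 limit of 1, and 385 and 209 at an adjusted p below 0.01. The cytokine comparison gave 624 and 15 with library sizes alone, 41 lower without a filter, 377 and 43 in a fit of its own libraries, 366 and 191 at a log2 limit of 1, 85 and 13 at an adjusted p below 0.01, and 92 and 15 within 1.5-fold. DESeq2 (789 and 93 for the first comparison) gave counts within 1.5 times in every comparison, with no adjusted p for 322 genes in the genotype and 965 in the cytokine comparison. Leaving out 1 library gave 461 to 624 higher and 47 to 129 lower genes from EpiLC to day 2, 462 to 699 and 261 to 406 for the genotypes, and 41 to 128 and 9 to 17 for the cytokines. The lone library left in a group is then assumed to vary like the other groups. Outside the eye lists, added after seeing the data, 747 and 96, 675 and 372, and 207 and 26 genes were called.

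The labels do not say whether the replicate numbers shared by the groups pair the samples. Deviations of same-numbered libraries correlated over genes at -0.113 between TKO EpiLC and day 2 without cytokines. The highest value was 0.275 (TKO EpiLC and day 2 with cytokines), with 1 of 10 pairs of groups above 0.1. A low correlation cannot show that samples were unpaired, so the pairing is not known. A replicate block gave 792 and 94, 694 and 364, and 227 and 25 calls, and crossed numbers, added after seeing the data, 784 and 92.

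Medians of 14 lists changed sign in 24 cases, 14 of them by more than the spread between replicates. With library sizes alone they were 0.11 for core, 0.36 for piRNA, 0.19 for other late germline, 0.070 for meiosis, 0.27 for DNA methylation, 0.013 for FGF, 0.45 for epithelial and 0.026 for cell cycle genes, and 0.12 for epithelial genes without Rn45s. In a fit of the 4 libraries the WNT median was -0.043. Without 1 library, the lowest was -0.16 for p53 and -0.085 for interferon genes and the highest 0.11 for DNA methylation genes, and other lists whose median changed sign ran from -0.68 to 0.13 for meiosis, -0.22 to 0.084 for repressive chromatin, -0.30 to 0.14 for Nodal, -0.13 to 0.25 for epithelial and -0.084 to 0.16 for Notch genes. For 25 genes, chosen for the largest changes from EpiLC to day 2 or for at most 3 counts in each EpiLC library, the adjusted p was set against 0.05, or 0.01 in the setting of that limit. It passed in 335 gene and setting pairs, did not in 14, and the direction reversed in 0. Cdk5r2 passed at a log2 fold change of only -1.80 without EpiLC replicate 2. The adjusted p of Crybb2 was 0.276 in DESeq2. Other than by the construction of an alternative (fewer samples or genes), the cause was not tested. Depth limits the values of the 342 genes with at most 3 counts in each EpiLC library.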
